A study of Mus musculus with 12 samples.

Results

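Obp2a, Dclre1a, Slc13a3, Rad51b and Tacc2 are 5 genes of mouse liver whose RNA was much higher after dietary retinoic acid (RA), and they were considered here as a group. They had been picked from earlier results of these same arrays, for large RA changes in wild type mice that looked different in mice without normal RXRα in their hepatocytes. They are 5 of 12393 genes on the chip, and 10 of 22626 probe sets (groups of short DNA probes that read 1 transcript), counting every probe set that carries 1 of the 5 symbols alone. Affymetrix mouse expression arrays had been run on whole liver RNA of 4 groups of 3 mice each. WT_RA mice were wild type and received RA at 150 mg/kg diet for 7 days, and WT mice were wild type on the normal diet. KO_RA mice were hepatic RXRα-deficient mice on the same RA diet, and KO mice were RXRα-deficient on the normal diet. All were on the C57BL/6 background. The wild type mice were 12-week-old males, and the age of the KO mice is not given separately. In the KO mice the exon for the DNA-binding domain of RXRα was flanked by LoxP sites and removed by Cre recombinase driven by the albumin promoter, so that other liver cells kept the gene. According to the study's methods, the KO hepatocytes still make a shortened RXRα that holds the ligand-binding domain.

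RA is the acid form of vitamin A. It binds the RA receptors (RARs), which sit on DNA as pairs with a retinoid X receptor such as RXRα, usually at 2 copies of a 6-base half-site. Binding of RA turns the pair from a repressor into an activator, and the gene of the RA-degrading enzyme Cyp26a1 is the best known target in liver. The 5 genes considered here are better known for other tasks. Obp2a, also named Lcn13, encodes a small secreted lipocalin, a family of barrel-shaped carriers of greasy molecules. Slc13a3 encodes a sodium-coupled carrier that moves dicarboxylates such as succinate into cells. Dclre1a encodes the nuclease SNM1A, which trims DNA at crosslinks between its strands, and Rad51b encodes a protein that takes part in homologous recombination. Tacc2 encodes a coiled-coil protein of the centrosome and its microtubules.

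The values are log2 levels from the robust multi-array average (RMA), on which 1 unit is a doubling. Array medians lay between 6.26 and 6.35. The lower quartile of all probe sets lay between 4.87 and 5.02 on every array and serves below as the mark of a level near the array floor. Arrays of the same group correlated at a Spearman rho of 0.976 to 0.994. Arrays WT_RA 3 and KO 1 stood apart in the 3′ control probe set for actin, at 9.4 and 9.12 against 12.13 to 12.93 on the other 10 arrays, so values without these 2 arrays are also given. The 7 measured hepatocyte markers averaged 13.08 to 13.32 on every array. Among them Tat was called higher in KO_RA than KO livers, by 0.92 ± 0.16 (SE, limma, adjusted p = 0.0474). Of all genes, 0.186% were called higher there. No marker of this list was called in WT_RA against WT livers. Cyp26a1 was higher in WT_RA than WT by 4.51 ± 0.18 (SE, limma, adjusted p = 4.89e-07) and in KO_RA than KO by 2.78 ± 0.18 (adjusted p = 0.000112). The 2 Rxra probe sets, which the annotation used here does not place on an exon, were 0.28 and 0.29 higher over the KO and KO_RA arrays than over the WT and WT_RA arrays (adjusted p = 0.216 and 0.25). They therefore check nothing about the deletion.

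Start-site sequences of the 5 genes were taken from RefSeq (GRCm38.p6), as 7 windows from 250 bases before the start to 50 after it. They are shown because RAR and RXRα bind DNA at short half-sites. Obp2a, Dclre1a 1417904_at and 2 Slc13a3 probe sets shared a highest group mean in WT_RA livers, which follows from how the genes had been picked. With group means removed, Obp2a and Dclre1a 1417904_at had a Pearson r of -0.02 over the 12 arrays. Each had -0.30 to -0.41 with the 2 Slc13a3 probe sets that changed. The capitals mark the half-site AGGTCA or one of its variants, which were AGTTCA, then GGGTCA and last GGTTCA, searched on both strands, and the letters TATAAA on the gene's strand. The 3 genes with a large RA change in wild type mice and a small one in KO mice come first, then the Rad51b window with the most half-sites, and last the 17 bases of the Cyp26a1 repeat.
Obp2a (chr2:25699824-25700123, plus strand): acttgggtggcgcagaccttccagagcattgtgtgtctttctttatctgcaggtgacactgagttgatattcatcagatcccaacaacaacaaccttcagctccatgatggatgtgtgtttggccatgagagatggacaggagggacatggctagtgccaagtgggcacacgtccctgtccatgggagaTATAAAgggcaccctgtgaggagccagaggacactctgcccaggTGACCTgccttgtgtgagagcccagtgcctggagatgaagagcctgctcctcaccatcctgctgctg
Dclre1a (chr19:56548173-56548472, minus strand): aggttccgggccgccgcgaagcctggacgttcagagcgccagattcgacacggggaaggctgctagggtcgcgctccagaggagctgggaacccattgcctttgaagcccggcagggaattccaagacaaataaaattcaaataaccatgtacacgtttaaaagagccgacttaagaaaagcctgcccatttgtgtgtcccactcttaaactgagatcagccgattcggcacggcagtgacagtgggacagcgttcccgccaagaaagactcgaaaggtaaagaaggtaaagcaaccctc
Slc13a3 (chr2:165473148-165473447, minus strand): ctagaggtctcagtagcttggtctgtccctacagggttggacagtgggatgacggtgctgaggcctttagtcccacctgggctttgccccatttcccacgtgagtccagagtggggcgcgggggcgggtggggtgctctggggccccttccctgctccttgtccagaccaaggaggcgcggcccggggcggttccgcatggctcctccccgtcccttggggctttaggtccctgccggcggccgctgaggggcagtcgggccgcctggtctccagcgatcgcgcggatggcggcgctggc
Rad51b (chr12:79297101-79297400, plus strand): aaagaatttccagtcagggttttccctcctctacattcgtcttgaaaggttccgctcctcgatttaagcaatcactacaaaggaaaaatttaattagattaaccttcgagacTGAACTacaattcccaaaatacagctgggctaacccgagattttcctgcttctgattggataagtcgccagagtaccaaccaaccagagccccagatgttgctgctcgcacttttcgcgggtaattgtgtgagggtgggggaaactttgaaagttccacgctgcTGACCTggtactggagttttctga
Cyp26a1 (chr19:37697776-37697792, plus strand): TGAACTttgggTGAACT
The Obp2a window held 1 half-site, AGGTCA on the minus strand from base -17 to base -12 counted from the start base as 0, and TATAAA from base -61. The Dclre1a and Slc13a3 windows held no half-site. The Rad51b window held 2, AGTTCA from base -138 and AGGTCA from base 26, both on the minus strand. A second Rad51b window and 1 of the 2 Tacc2 windows held 1 half-site each. The AGTTCA of both Rad51b windows is the same site, since the windows overlap. In all, 3 of the 5 genes and 4 of the 7 windows held a half-site, and 43.7% of 32851 windows of the same length did. None of the 7 held 2 half-sites in the same direction with 1 to 5 bases between them, an arrangement found in 0.7% of all windows. The Cyp26a1 window held such a repeat with 5 bases between, as did 0.1% of all windows. TATAAA stood in 8.3% of all windows. A match of letters is a description of these windows only.

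Obp2a was read by 1 probe set, 1428022_at. Its level was 7.77, 7.16 and 7.12 in WT_RA livers, against 5.28, 5.07 and 5.59 in WT livers. It was 4.19, 4.36 and 4.28 in KO_RA livers, against 4.77, 4.59 and 4.53 in KO livers. Every WT_RA array was above every WT array, and every KO_RA array was below every KO array. The RA change was 2.04 ± 0.17 in wild type mice (SE of the model, 3 arrays a group), or 4.10-fold, and -0.36 ± 0.17 in KO mice. The change in KO minus that in wild type mice was -2.39 ± 0.24. Obp2a was also lower in KO than WT livers on the normal diet, by -0.68 ± 0.17 with no overlap of the arrays. Under RA the KO_RA arrays were -3.08 ± 0.17 against the WT_RA arrays. All 6 KO_RA and KO arrays were below the lower quartile of their array, at percentiles 11.9 to 15.6 in KO_RA and 17.8 to 20.3 in KO livers. The WT_RA arrays were at percentiles 64.0 to 72.6 and the WT arrays at 28.1 to 36.3. The KO_RA and KO values thus lay near the array floor. Neither the sign of the change in KO mice nor the size of the difference from wild type mice can be taken as exact. Less RNA per cell and fewer cells of a type cannot be told apart in whole liver RNA, here or below.

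The lipocalin family gave 17 other measured genes. RA in wild type mice changed 4 of them, 3 higher and 1 lower, where 0.726% and 0.242% of all genes were called higher and lower (1 probe set a gene, adjusted p under 0.05 over all probe sets). Lcn2, an iron-siderophore binder of the acute phase, was higher by 3.67 ± 0.50 (adjusted p = 0.00811). The acid glycoprotein genes Orm2 and Orm3, whose close sequences may share probes, were higher by 2.94 and 1.94 (adjusted p = 0.026 and 0.01). C8g, a subunit of complement component C8, fell by 0.39 (adjusted p = 0.0478). The median over the 17 genes was 0.03, against -0.01 over all genes. In KO mice RA raised Orm2 by 3.27 and Orm3 by 2.19 (adjusted p = 0.0228 and 0.01), where 0.186% of all genes were called higher. Lcn2 was 2.62 ± 0.50 higher there and just missed the threshold (adjusted p = 0.052). It passed without WT 1, WT_RA 3 or KO 2 (0.0238 to 0.0497) and under 5 of the other settings (0.0128 to 0.0471). Thus Lcn2, Orm2 and Orm3 had large positive values in both genotypes, and Obp2a had one in wild type mice and stayed near the array floor in KO mice. The Lcn2 call in wild type mice held with each array left out. The C8g call was lost in 11 of 12 such fits (all but the fit without KO 1, adjusted p up to 0.188). In wild type mice the Orm2 call was lost without any 1 of the 3 WT arrays, WT_RA 2 or WT_RA 3 (0.0692 to 0.0937), and the Orm3 call without WT 3 or WT_RA 2 (0.0505 and 0.0625). In KO mice the Orm2 call was lost without KO 1, KO 3 or any 1 of the 3 KO_RA arrays (0.0501 to 0.098), and the Orm3 call without KO 3 or KO_RA 2 (0.0513 and 0.0583).

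**Figure D1:**
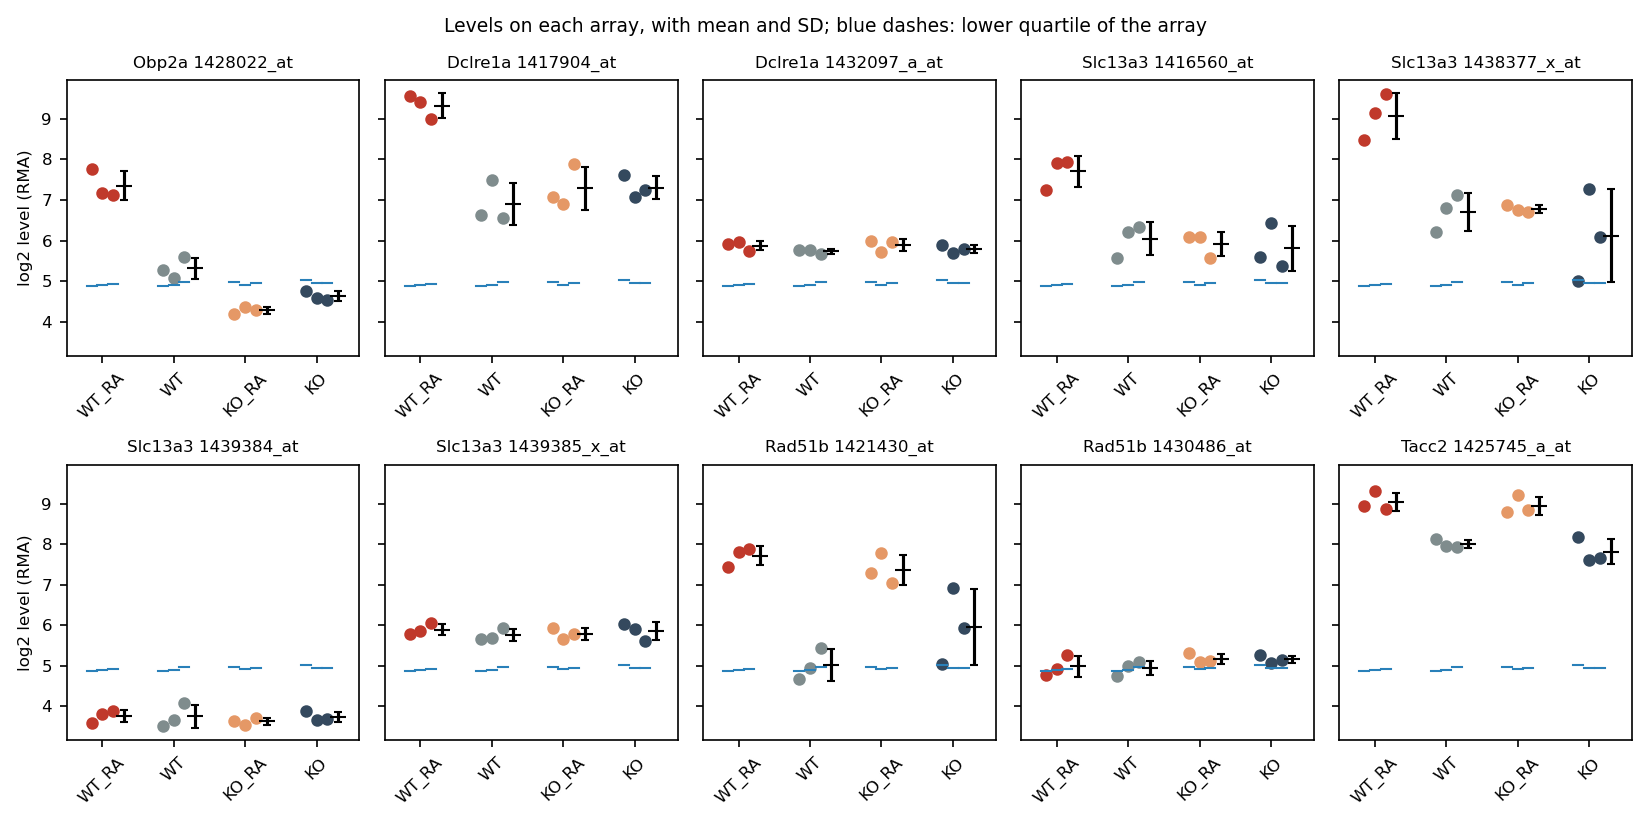
Log2 level on each array (points), group mean and SD (black) for the 10 probe sets of the 5 genes, in WT_RA, WT, KO_RA and KO livers (3 arrays each), with the lower quartile of each array as blue dashes. Obp2a lay above the dashes on the WT_RA and WT arrays and below them on all 6 KO_RA and KO arrays, and 4 probe sets stayed nearly level over the groups.

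Dclre1a was read by 2 probe sets. For 1417904_at the level was 9.57, 9.41 and 8.99 in WT_RA livers, against 6.63, 7.49 and 6.57 in WT livers. It was 7.08, 6.89 and 7.88 in KO_RA livers, against 7.61, 7.07 and 7.24 in KO livers. The WT_RA arrays stood apart from the other 9 arrays, which all overlapped in range. The RA change was 2.43 ± 0.29 in wild type mice, or 5.38-fold, and -0.02 ± 0.29 in KO mice. The difference of the changes was -2.45 ± 0.42. The KO livers were 0.41 above the WT livers on the normal diet, with overlap, and the KO_RA livers were -2.04 against the WT_RA livers, a ratio of 0.243 with no overlap. All 12 values were between percentile 54.3 and 89.9 of their array, well off the floor. The second probe set, 1432097_a_at, stayed between 5.67 and 5.99 on all arrays, with an RA change of 0.14 ± 0.10 in wild type and 0.11 ± 0.10 in KO mice. Only 1 of the 2 probe sets of Dclre1a thus showed the change.

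The repair of crosslinks between DNA strands, in which Dclre1a takes part, gave 18 other measured genes. RA called 0 of the 18 in either genotype with limma (1 in wild type and 2 in KO mice had an unadjusted p under 0.05), with medians of 0.01 in wild type and -0.10 in KO mice against -0.01 and -0.03 over all genes. Their changes lay between -0.31 and 0.40 in wild type and between -0.35 and 0.40 in KO mice. Dclre1b, the sister nuclease, had a change of 0.04 in wild type and -0.10 in KO mice. Since Dclre1a had been picked for its rise, its place over this list is no finding.

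Slc13a3 was read by 4 probe sets, of which 2 changed. For 1438377_x_at, a set of which some probes may match other transcripts, the level was 8.47, 9.15 and 9.61 in WT_RA livers, against 6.20, 6.81 and 7.12 in WT livers. It was 6.88, 6.74 and 6.70 in KO_RA livers, against 5.001, 7.28 and 6.09 in KO livers. The KO arrays thus spanned more than the KO_RA arrays and enclosed them, with an SD of 1.14 over KO livers. The RA change was 2.36 ± 0.47 in wild type mice, or 5.14-fold, and 0.65 ± 0.47 in KO mice, or 1.57-fold. The difference was -1.71 ± 0.66. Array KO 1 was the single one under the lower quartile. The KO value rested on single arrays. Without KO 1 and WT_RA 3 the RA change in KO mice was 0.09 and the difference -2.00, and without KO 2 they were 1.23 and -1.13.

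In the probe set 1416560_at the WT_RA arrays were again above all others. Its level was 7.25, 7.92 and 7.93 in WT_RA livers, against 5.57, 6.22 and 6.34 in WT livers. It was 6.08, 6.08 and 5.57 in KO_RA livers, against 5.60, 6.44 and 5.38 in KO livers. The RA change was 1.66 ± 0.30 in wild type mice, or 3.16-fold, and 0.11 ± 0.30 in KO mice, with a difference of -1.55 ± 0.42. Over the 12 arrays the 2 probe sets had a Pearson r of 0.950, and of 0.781 once group means were removed. In both, WT_RA was above WT and above KO_RA with no overlap. The other 2 probe sets gave no such pattern. The set 1439384_at lay at 3.53 to 4.07, below the lower quartile on all 12 arrays, and 1439385_x_at lay at 5.62 to 6.06, with RA changes in wild type mice of 0.01 ± 0.14 and 0.13 ± 0.13 and in KO mice of -0.11 and -0.07.

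Among 10 other carriers of organic anions, RA in wild type mice raised 1, the monocarboxylate carrier gene Slc16a7, by 0.92 ± 0.15 (adjusted p = 0.0187). Of all genes, 0.726% were called higher there. In KO mice 0 of the 10 were called (4 at an unadjusted p under 0.05, limma), and Slc16a7 was 0.55 higher (adjusted p = 0.142). The medians were -0.06 and -0.05. The Slc16a7 call was lost without WT 1, WT 3, WT_RA 1 or WT_RA 2 (adjusted p 0.0508 to 0.0878). Slc13a2, a carrier of dicarboxylates of the same family, was -0.43 in WT_RA against WT and -0.39 in KO_RA against KO (adjusted p = 0.281 in both). Slc25a10, the mitochondrial dicarboxylate carrier, had 0.01 and 0.40 (adjusted p = 0.992 and 0.273).

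Rad51b was read by 2 probe sets. For 1421430_at the level was 7.44, 7.81 and 7.88 in WT_RA livers, against 4.68, 4.94 and 5.45 in WT livers. It was 7.29, 7.77 and 7.04 in KO_RA livers, against 5.04, 6.91 and 5.94 in KO livers. In both genotypes every array of the RA diet was above every array of the normal diet. The RA change was 2.69 ± 0.38 in wild type mice, or 6.44-fold, and 1.41 ± 0.38 in KO mice, or 2.65-fold, with a difference of -1.28 ± 0.54. Under RA the KO_RA and WT_RA livers overlapped, at a difference of -0.34, and the KO livers were 0.94 above the WT livers on the normal diet, with overlap. The larger part of the difference between the RA changes thus lay in the levels on the normal diet. WT 1 was under the lower quartile, and WT 2 and KO 1 were only 0.03 and 0.02 above it. Part of the normal diet values thus lay near the array floor. The sizes of the RA changes and of their difference cannot be taken as exact. The other probe set, 1430486_at, lay at 4.75 to 5.31 and had RA changes of 0.04 ± 0.13 in wild type and 0.01 in KO mice, below the lower quartile on 2 arrays.

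The KO livers spread more in Rad51b than the other groups, with an SD of 0.94. Array KO 2 was highest and KO 1 lowest, as they were for Slc13a3 1438377_x_at. Without KO 2 the RA change in KO mice was 1.88 and the difference -0.80, and without KO 1 and WT_RA 3 they were 0.95 and -1.66. Over the 12 arrays, after removal of group means, Rad51b and Slc13a3 1438377_x_at had a Pearson r of 0.908. This was the highest among all pairs of the 10 probe sets. Rad51b had 0.757 with Slc13a3 1416560_at, -0.134 with Obp2a, -0.569 with Dclre1a 1417904_at and -0.407 with Tacc2. The 10 markers of Kupffer cells and other macrophages ordered the KO arrays as Rad51b did, and likewise the WT and WT_RA arrays. Over the KO_RA arrays the order was reversed. Their median deviation from the gene means was -0.43 in KO 1, 1.59 in KO 2 and 0.46 in KO 3. It was lowest of the KO_RA arrays in KO_RA 2, at -0.15, where Rad51b was highest. It was highest in KO_RA 3, at 0.13, where Rad51b was lowest. The mean level of the markers was 7.73 to 8.50 in WT_RA and 7.03 to 7.24 in WT livers, and 7.70 to 7.97 in KO_RA and 7.40 to 9.54 in KO livers. Under RA all 10 were higher in wild type mice (median 0.97) and none in KO mice (median -0.58), though limma called 0 of 10 in either (5 and 2 at an unadjusted p under 0.05). The lists for stellate, endothelial, bile duct, neutrophil and T or NK cells had medians of -0.02 to 0.05 in wild type and -0.23 to 0.03 in KO mice, with 0 genes called. At an unadjusted p under 0.05 these lists held 1 of 8, 0 of 6, 1 of 5, 2 of 7 and 0 of 5 genes in wild type mice, and 4, 2, 0, 0 and 0 in KO mice. The 2 neutrophil markers were S100a8 and S100a9, at 2.25 and 1.53 in wild type mice (adjusted p = 0.131 and 0.181), and the stellate cell list reached -1.71 for Col3a1 in KO mice (adjusted p = 0.0766). Under RA in KO mice the median of the 10 macrophage markers was -0.58, and the Rad51b change was 1.41. None of the 10 markers was below the lower quartile on all arrays, and the part of these cells in the Rad51b and Slc13a3 values was not tested.

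**Figure D2:**
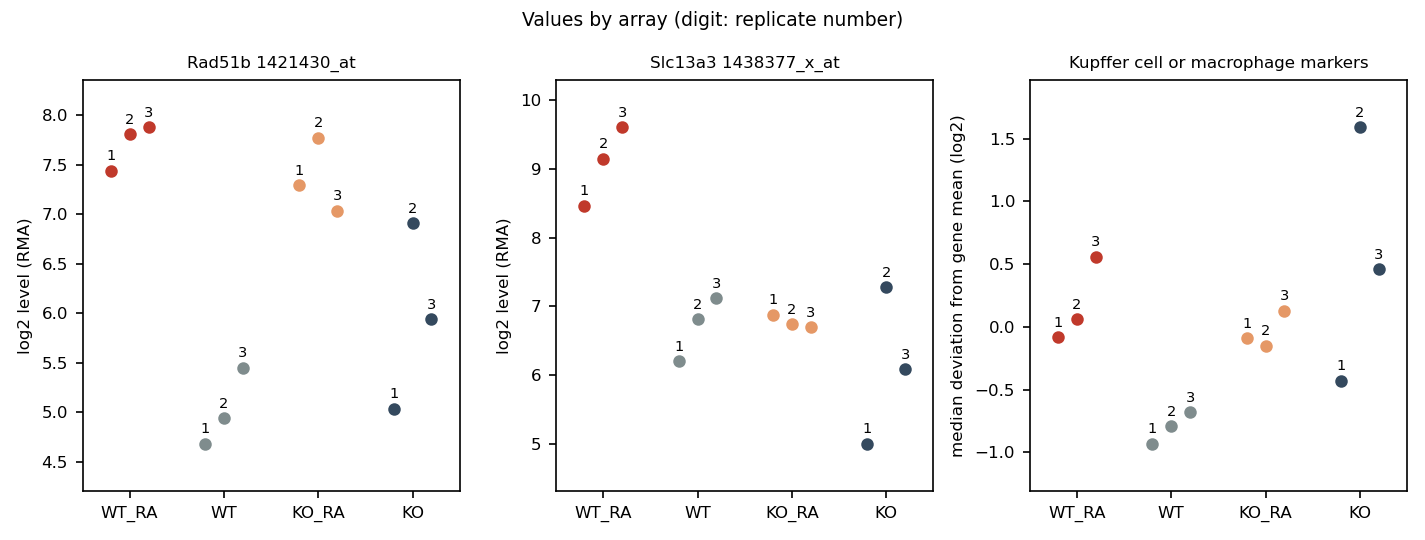
Log2 level of Rad51b and of Slc13a3 1438377_x_at, and the median deviation of 10 Kupffer cell or macrophage markers from their means (log2), on each array of the WT_RA, WT, KO_RA and KO groups. Digits are replicate numbers. In KO livers array 2 was highest and array 1 lowest in all 3 panels. In KO_RA livers array 2 was highest for Rad51b and lowest for the markers.

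Homologous recombination gave 17 other measured genes, and RA called 0 of them in either genotype with limma (2 in wild type and 4 in KO mice at an unadjusted p under 0.05). The medians were -0.01 in wild type and -0.11 in KO mice. The related Rad51c and Rad51d, which form complexes with Rad51b, had changes of 0.01 and -0.12 in wild type mice and -0.37 and -0.19 in KO mice. Changes over the list lay between -0.24 and 0.44 in wild type and between -0.45 and 0.15 in KO mice. The 9 measured genes of the cell cycle had medians of 0.18 in wild type and -0.23 in KO mice, with 0 called (2 and 3 at an unadjusted p under 0.05).

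Tacc2 was read by 1 probe set, 1425745_a_at. Its level was 8.95, 9.30 and 8.87 in WT_RA livers, against 8.13, 7.97 and 7.93 in WT livers. It was 8.80, 9.20 and 8.85 in KO_RA livers, against 8.17, 7.62 and 7.65 in KO livers. Both RA groups lay above both normal diet groups, with no overlap, and within a diet the genotypes overlapped. The RA change was 1.04 ± 0.17 in wild type mice, or 2.05-fold, and 1.14 ± 0.17 in KO mice, or 2.20-fold. The difference of 0.10 ± 0.24 was smaller than its SE, so these arrays do not bear out for Tacc2 the label under which the genes had been picked. Its levels were at percentiles 71.5 to 88.3 on all 12 arrays, away from the floor. Among 9 other genes of the TACC family and the centrosome, RA called 0 in either genotype with limma (0 in wild type and 2 in KO mice at an unadjusted p under 0.05), with medians of -0.02 in wild type and 0.06 in KO mice. Tacc3 had changes of 0.00 and 0.30 in wild type and KO mice (adjusted p = 0.996 and 0.182).

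Set side by side, the 5 genes gave 3 forms of RA response. Obp2a, Dclre1a and 2 of the 4 Slc13a3 probe sets were higher under RA in wild type mice and had values between -0.36 and 0.65 in KO mice. Rad51b was higher in both genotypes, with the larger value in wild type mice, and Tacc2 was higher in both by 1.04 and 1.14. Without WT_RA 3 and KO 1 the changes in wild type and KO mice were 2.15 and -0.29 for Obp2a, 2.60 and 0.13 for Dclre1a, 1.54 and 0.00 for Slc13a3 1416560_at, and 1.12 and 1.32 for Tacc2. As a share of the log2 change in wild type mice, the change in KO mice was -17.5% for Obp2a, -0.9% for Dclre1a, 6.4% and 27.6% for Slc13a3, 52.4% for Rad51b and 110.1% for Tacc2. Of the 130 probe sets called higher by RA in wild type mice (0.575% of all), the median share was 27.7% (quartiles 3.4% and 60.1%). The genes of the 6 probe sets were picked for such a rise, so their place among the 130 is no finding. The Obp2a share rests on values near the array floor, and the Rad51b share does so in part. Leaving out single arrays moved the share to between 3.9% (without KO 1) and 52.1% (without KO 2) for Slc13a3 1438377_x_at, and to between -6.6% (without KO 3) and 25.6% (without KO 2) for 1416560_at. The same fits gave 35.2% (without KO 1) to 70.0% (without KO 2) for Rad51b, -13.2% (without KO_RA 3) to 7.2% (without KO_RA 2) for Dclre1a and 97.8% to 127.2% for Tacc2. The ranges of Slc13a3 1438377_x_at and Rad51b overlapped, so the form given to that probe set depends on single KO arrays. Of the 130 probe sets, 22.3% had a negative KO value and 6.9% a share over 100%. Since the 5 genes were picked on both changes, their shares are a description.

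**Figure D3:**
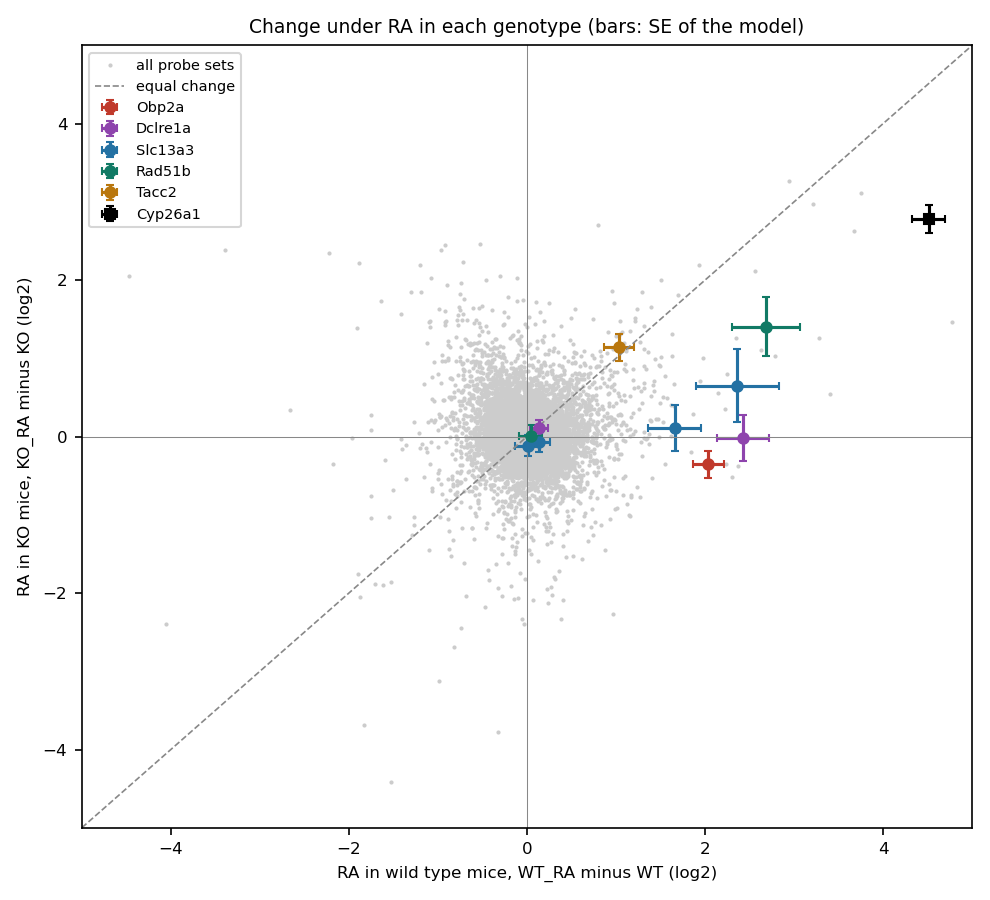
RA change in KO mice (KO_RA minus KO, vertical) against RA change in wild type mice (WT_RA minus WT, horizontal), both in log2 units, for all 22626 probe sets (grey), the 10 probe sets of the 5 genes and Cyp26a1, with bars for the SE of the model. Tacc2 lay on the line of equal change, Rad51b and Cyp26a1 between it and the horizontal axis, Dclre1a near that axis and Obp2a below it.

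By arrays that did not overlap, WT_RA was above WT in 6 of the 10 probe sets, where 7.76% of all probe sets did so. KO_RA was above KO in 2, Rad51b and Tacc2 (9.93% of all), and below KO in 1, Obp2a (11.2%). KO was below WT on the normal diet in 1, Obp2a (9.94%), and KO_RA was below WT_RA in 4, namely Obp2a, Dclre1a and 2 of Slc13a3 (13.1%). These counts repeat the choice of the genes or share arrays with it, and nothing is read from them. In wild type mice the 6 ranked 10 (Rad51b), 13 (Dclre1a), 15 and 29 (Slc13a3), 22 (Obp2a) and 126 (Tacc2) of 22626 by size of the rise.

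The genotypes were also set against each other, as the mean of KO and KO_RA minus the mean of WT and WT_RA. A high level in WT_RA livers alone lowers this mean, so that for genes picked as these were it is given as a description with no test. It was -1.88 ± 0.12 for Obp2a, made up of -0.68 on the normal diet and -3.08 under RA. It was -1.01 ± 0.21 and -1.44 ± 0.33 for Slc13a3 1416560_at and 1438377_x_at, with -0.24 and -0.59 on the normal diet and -1.79 and -2.30 under RA. Dclre1a 1417904_at had -0.81 ± 0.21, from 0.41 on the normal diet and -2.04 under RA. In these 3 genes most of the mean thus came from the comparison of KO_RA with WT_RA livers. Rad51b 1421430_at and Tacc2 had 0.30 ± 0.27 and -0.14 ± 0.12. The 4 probe sets that stayed level under RA had means of -0.07 to 0.20.

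The nearest measured genes on either side of each of the 5 were followed, to see how far along the chromosome the RA change was found. Of these 10 neighbours, limma called 1 in wild type mice and 0 in KO mice (2 in each at an unadjusted p under 0.05). Of all genes, 0.726% were called higher in wild type mice. The neighbour called was Zfp36l1, a gene for a protein that hastens decay of AU-rich RNAs. It lies 259499 bases from Rad51b and was higher by 0.91 ± 0.14 in WT_RA than WT livers (adjusted p = 0.0129). The call was lost without WT 3 or WT_RA 2 (0.0576 and 0.068). In KO mice its change was 0.25 ± 0.14 (adjusted p = 0.431), and the difference of the changes did not pass the test (adjusted p = 0.254). On the other side of Rad51b, 958 bases away, Zfyve26 had -0.19 in wild type and -0.18 in KO mice (adjusted p = 0.528 and 0.412). Next to Obp2a, Lcn5 and Bmyc had changes of 0.03 and 0.10 in wild type mice and -0.07 and -0.06 in KO mice. Next to Dclre1a, Plekhs1 and Ccdc186 had 0.02 and 0.09 in wild type mice and -0.05 and 0.02 in KO mice. Next to Slc13a3, Ocstamp had 0.52 (adjusted p = 0.416) and Trp53rka 0.07 in wild type mice. In KO mice Ocstamp had 0.38 and Trp53rka 0.40 (adjusted p = 0.451 and 0.115). Next to Tacc2, Nsmce4a and Plekha1 had -0.08 and -0.31 in wild type mice and -0.30 and -0.0045 in KO mice. Coding genes that the chip did not measure under a symbol of their own lay between Obp2a and Lcn5, between Dclre1a and Ccdc186, and between Tacc2 and Plekha1. The 5 genes had been picked for their rise, so smaller values in their neighbours are a description.

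**Figure D4:**
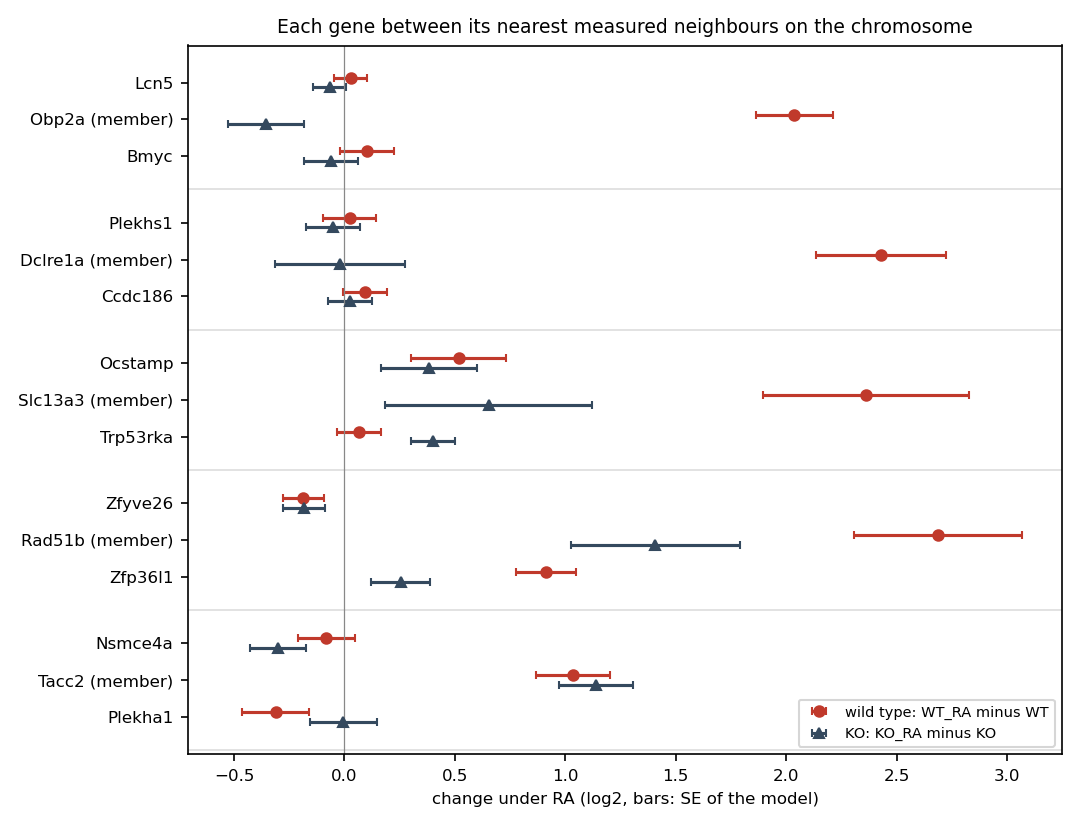
RA change in log2 units (horizontal, bars for the SE of the model) in wild type mice (circles) and in KO mice (triangles) for each of the 5 genes and its nearest measured neighbour on either side, in chromosome order. Zfp36l1, at 0.91 in wild type mice, was the single neighbour called.

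The genes whose levels ran most like each of the 5 were ranked by Pearson r over the 12 arrays, among 3099 probe sets with a range of at least 1 log2 unit. The arrays share 4 groups, so that a high r mostly restates a like group pattern, and it is given as a description. Obp2a ran with Chd1l (0.967), a chromatin remodeller of DNA repair, Gas6 (0.949), a ligand of the TAM receptors, and the heat shock gene Hspa2 (0.939). Gas6 averaged 8.16 in WT_RA and 6.87 in WT livers, and 6.14 in KO_RA and 6.39 in KO livers, the same order of groups as Obp2a. Dclre1a ran with Nfil3 (0.941), a repressor of the circadian clock output, Dop1b (0.930) and the phospholipase gene Plce1 (0.919). Nfil3 averaged 8.81 in WT_RA and 7.34 in WT livers, and 7.54 in KO_RA and 7.32 in KO livers. Slc13a3 ran with Prom1 (0.921), Tgm1 (0.919) and Myh9 (0.918), and Prom1 had changes of 1.35 in wild type and -0.02 in KO mice. Rad51b ran with Tmem176b (0.982), Lcn2 (0.959) and Gpx3 (0.949), a secreted glutathione peroxidase. Tacc2 ran with Tcim (0.923), Susd6 (0.923) and Orm3 (0.918). The genes most like Rad51b and Tacc2 were thus higher under RA in both genotypes, and those most like Obp2a mainly in wild type mice.

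Known targets of the RA receptors were set beside these forms, in a list drawn up with earlier results of these data known. Of 16 measured, RA raised 5 in wild type mice and 2 in KO mice, where 0.726% and 0.186% of all genes were called higher. These counts are thus a description. Cyp26a1 and Trim24, a transcription cofactor, were called in both, with changes of 4.51 and 2.35 in wild type and 2.78 and 1.26 in KO mice (Trim24 adjusted p = 0.000636 and 0.0369). Rarb, an RA receptor itself, was called in wild type mice with 1.42 (adjusted p = 0.00481) and had 0.66 in KO mice (0.142). Ripk4 had 1.34 (0.0327) and -0.03 (0.966), and Tgm2, a transglutaminase, had 1.06 (0.0453) and 0.27 (0.582). For none of the 5 did the difference of the changes pass the test, with Cyp26a1 closest at -1.73 ± 0.26 (adjusted p = 0.0619), and called without WT 1 or WT 2 (0.0184 and 0.0259) and with median centring, trended robust moderation or array weights (0.0418, 0.0438 and 0.0113). Ripk4 was called with array weights (0.0394), a setting in which the WT mean rested mostly on WT 2. The Ripk4 call was lost in 7 of 12 fits without 1 array (without any 1 of the WT or WT_RA arrays, or KO_RA 3) and the Tgm2 call in 9 (kept without WT_RA 1, KO 1 or KO 2), with adjusted p up to 0.134 and 0.167. The Trim24 call in KO mice was lost in 8 (kept without KO 2 or any 1 of the WT_RA arrays), with adjusted p up to 0.114. Cyp26a1 and Rad51b thus both kept a share of their change in KO mice, and Ripk4 had values of the form seen for Dclre1a.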

How the data were processed

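Liver RNA of 12 mice in 4 groups of 3 was measured on Affymetrix mouse expression arrays. The deposited table holds log2 values that the authors made with RMA in Partek 6.11, per the submitters' processing notes, whereas the study's methods name MAS5 with a filter on detection p. RMA compresses changes of dim probe sets, and the table holds no detection calls. Replicates are separate biological samples per the labels. Their number limits the precision. Of 22690 probe sets, 64 controls were left out. Of the 22626 tested, 20380 carried 1 gene symbol in the platform annotation, 691 several and 1555 none. For lists, a gene was represented by its probe set of highest average level.

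limma 3.58.1 (R 4.3.3) was fitted with 1 coefficient per group on all 12 arrays (8 residual degrees of freedom), with two-sided tests and Benjamini-Hochberg adjustment over all probe sets, threshold 0.05. Counts at an unadjusted p under 0.05 stand without a share over all genes, and nothing is read from them. The script was tested on simulated data. The members and lists were chosen with earlier results of these data known. The 5 genes were picked on the RA changes, so these carry an SE and no test. The genotype mean over diets, planned as a test, moves with the same choice and is given without one. Named otherwise were Cyp26a1 and Rxra, the 3 genes most correlated with each member, the nearest measured neighbours, and up to 4 list genes per list past the threshold under RA, by size of change. Slc13a2, Slc25a10, Dclre1b, Rad51c, Rad51d, Tacc3, Tgm2, S100a8, S100a9 and Col3a1 were named outside this rule, after their values were seen. Neighbour order came from a RefSeq gene table. Alternatives were a replicate block, median centring, quantile scaling, a filter on dim probe sets, 1 probe set per gene, trended robust moderation, array weights, only the 6 arrays compared, and fits without arrays.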

Additional observations from a re-analysis of the deposited data

Results flagged for a closer look

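Obp2a 1428022_at was picked out because every WT_RA array lay above the WT mean while every KO_RA array lay below the KO mean. The RA change in KO minus that in wild type mice was -2.39 on the log2 scale. The difference was not tested, since the gene had been chosen for it. It stayed between -2.53 and -2.18 with each array left out, and all 6 KO_RA and KO arrays were below the lower quartile of their array.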

How the results depend on the processing

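No alternative turned a direction that was called. The count of probe sets called for RA in wild type mice was 182, for RA in KO mice 88, for the difference of the RA changes 5, for KO against WT 135, for KO_RA against WT_RA 656 and for the genotype mean 864. With the replicate number as a block these were 107, 51, 4, 97, 418 and 654. The numbers showed no clear pairing of the mice (6 of 18 pairs correlated above 0.1, and 3 of 12 arrays were closest to their own number). With 3 arrays a group, such correlations cannot exclude a pairing or a batch shared by number. The block ended the wild type calls of Tgm2 and C8g (adjusted p = 0.0777 and 0.103). Array weights gave 1385, 462, 302, 2811, 1520 and 3517, and turned KO minus WT of Dclre1a, untested, to -0.15 from 0.41. The weight was 7.03 for WT 2, against 0.39 for WT 1 and 0.63 for WT 3. In this setting the WT mean thus rested mostly on WT 2. With only the 6 arrays compared, RA in wild type mice gave 83, RA in KO mice 45 and KO against WT 68, while Orm3, Zfp36l1, Tgm2 and C8g missed the threshold in wild type mice (adjusted p = 0.0592, 0.0784, 0.0851 and 0.14) and Orm2 and Trim24 in KO mice (0.0678 and 0.111). Without WT_RA 3 and KO 1, RA in KO mice gave 171, the difference 18, KO_RA against WT_RA 421, and KO against WT 333, of which 205 were higher and 128 lower, against 45 higher and 90 lower with all arrays, and Orm2, Tgm2 and C8g in wild type mice and Trim24 in KO mice lost their calls (0.0592, 0.0662, 0.123 and 0.0558). The difference gave 9 calls with median centring and 1 with 1 probe set per gene. Leaving out single arrays gave 44 to 239 calls for RA in wild type mice, 15 to 149 for RA in KO mice, 3 to 15 for the difference, 58 to 236 for KO against WT, 156 to 854 for KO_RA against WT_RA and 442 to 953 for the genotype mean. The cause of these shifts was not tested. C8g was also lost with median centring and the dim filter (0.0694 and 0.0528). Levels near the lower quartile, as for Obp2a in KO mice, limit how small a change could be seen.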
